A study of Homo sapiens with 9 samples.

Results

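The 10 genes described here are 4 cadherins (CDH1, CDH3, CDH2 and CDH13), the filament gene VIM, and 5 transcription factors of epithelial-mesenchymal transition (EMT), namely SNAI1, SNAI2, TWIST1, ZEB1 and ZEB2. They were chosen by symbol, and all 10 were found among the 21170 features of the table. Enough counts for testing were present for 8 of them, and ZEB1 and ZEB2 were too low. RNA with poly(A) tails was sequenced from HaCaT cells, human skin keratinocytes that became immortal spontaneously in culture. The 9 libraries formed 3 groups of 3: cells with an empty vector (Vector), cells overexpressing wild-type FTO (FTO), and cells overexpressing an FTO mutant whose demethylase activity is impaired (mut-FTO). FTO takes methyl groups off adenosines in RNA, and the series asks how it bears on psoriasis-like dermatitis through FN1, the fibronectin gene. The sources used here do not give the vector, its promoter, the mutation or whether a group was 1 clone. Separate cultures are not stated for the replicates, and p-values therefore reflect only how these libraries vary, which may be technical. The columns of the table carry letter codes, and FTO and mut-FTO were told apart by those letters alone.

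Cadherins are adhesion proteins that hold neighbouring cells together across adherens junctions. E-cadherin and P-cadherin, encoded by CDH1 and CDH3, are the classical cadherins of epidermal keratinocytes, with P-cadherin most abundant in the basal layer. In EMT an epithelial cell loses E-cadherin, gains N-cadherin (CDH2) and vimentin, and becomes motile. Factors of the SNAI, TWIST and ZEB families drive this change, and SNAI and ZEB proteins repress CDH1 by binding short E-box sequences. In skin, SNAI2 is also active in normal keratinocytes, during wound closure and in the undifferentiated basal state.

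Depth was 32222203 to 37846027 counts per library. Vector replicate 3 stood apart, with 14.97% of its counts from mitochondrially encoded genes against 3.805% to 7.446% in the other 8 libraries. Assembled loci without a gene name took 2.498% in that library and 3.169% in mut-FTO replicate 2, against 0.6887% to 0.8745% in the remaining 7. FTO itself measured 16.97 to 25.83 CPM (the count relative to library size, scaled by edgeR's TMM factors) in Vector, and it was higher in FTO (62.6 to 77.1 CPM) and in mut-FTO (49.7 to 82.7 CPM). The keratinocyte identity of the cells was checked on 10 marker genes, all of which exceeded 1 CPM in every group. Their summed level was 14200 to 17720 CPM in Vector, 16940 to 17520 CPM in FTO and 21330 to 27530 CPM in mut-FTO. KRT14, KRT5 and KRT15 made up most of the difference in the sum between mut-FTO and Vector, while TP63 (389 CPM in Vector and 275 in mut-FTO), COL17A1 (1078 and 806 CPM) and ITGB4 (1342 and 1286 CPM) were lower in mut-FTO by their means.

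P-cadherin RNA was the most abundant cadherin RNA of the cells, E-cadherin RNA was the next of the 4 cadherins, and vimentin RNA was close to absent in all groups. Levels of different genes were compared per length, as CPM per kilobase (kb) of the longest transcript of each gene in GENCODE 29, averaged over the 3 groups. CDH3 stood at 295 CPM per kb, above 98.4% of the 12531 tested genes with a known length. CDH1 had 33.6 CPM per kb, above 85.6% of these genes. SNAI2 followed at 20.9 CPM per kb, CDH13 at 12.45 and CDH2 at 1.985. At the low end, SNAI1 (0.241 CPM per kb), TWIST1 (0.205) and VIM (0.138) each stood above no more than 8.87% of these genes, ZEB1 had 0.0067 and ZEB2 0.0046. In the FTO group the upper neighbours of this order were separated by more than their spread: CDH1 at 29.1 ± 2.25 CPM per kb, SNAI2 at 19.0 ± 1.38 and CDH13 at 12.0 ± 0.194 (SD, n = 3). In Vector, SNAI2 (26.6 ± 15.3 CPM per kb) did not separate from CDH13 (13.2 ± 2.01) or from CDH1 (38.2 ± 4.41). The order SNAI1, TWIST1, VIM held in Vector, where SNAI1 had 0.582 ± 0.233 CPM per kb. In FTO SNAI1 had the lowest mean at 0.0635 ± 0.0842, below TWIST1 (0.308 ± 0.229) and VIM (0.191 ± 0.0492). These 3 genes overlapped within their spread in FTO and in mut-FTO, as did TWIST1 and VIM in Vector, and ZEB1 and ZEB2 in every group.

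**Figure D1:**
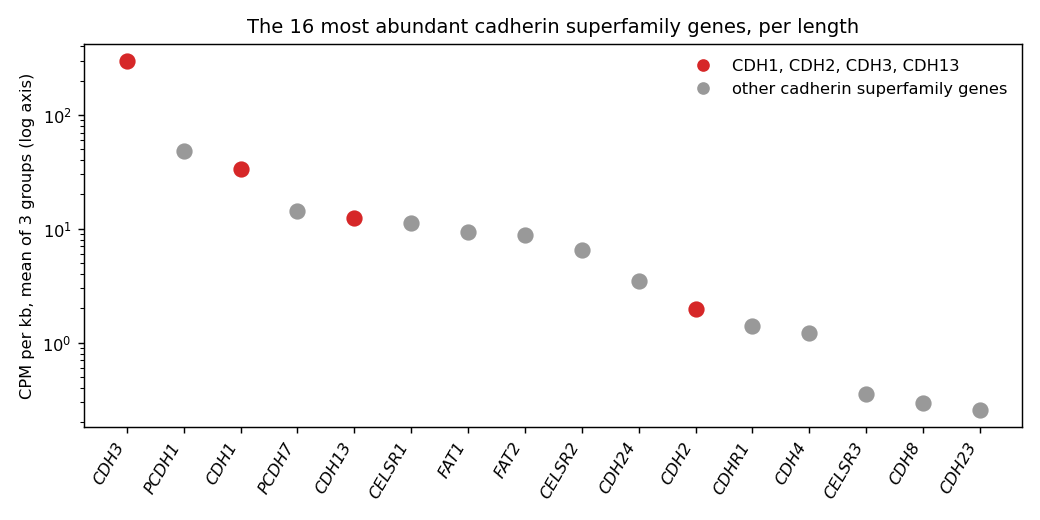
Level per length (CPM per kb of the longest transcript, log axis) of the 16 most abundant genes of the cadherin superfamily among 43 examined, each point the mean of the 3 group means. CDH3 at 295 CPM per kb stands above the next gene, the protocadherin PCDH1, at 48.0, and CDH2 at 1.985 lies far below CDH1 at 33.6.

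Among 43 genes of the cadherin superfamily, CDH3 alone made up 62.2% to 67.4% of the summed level per length in the 9 libraries. CDH1 contributed 6.57% to 9.29% and CDH13 2.20% to 3.46%, with all groups overlapping for these 3 genes. CDH2 was the exception: its share was 0.462% to 0.890% in Vector, 0.340% to 0.555% in FTO and 0.172% to 0.306% in mut-FTO. No mut-FTO library reached the share of any FTO or Vector library. The longest transcript need not be the one the cells used, so these shares are approximate between genes.

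**Figure D2:**
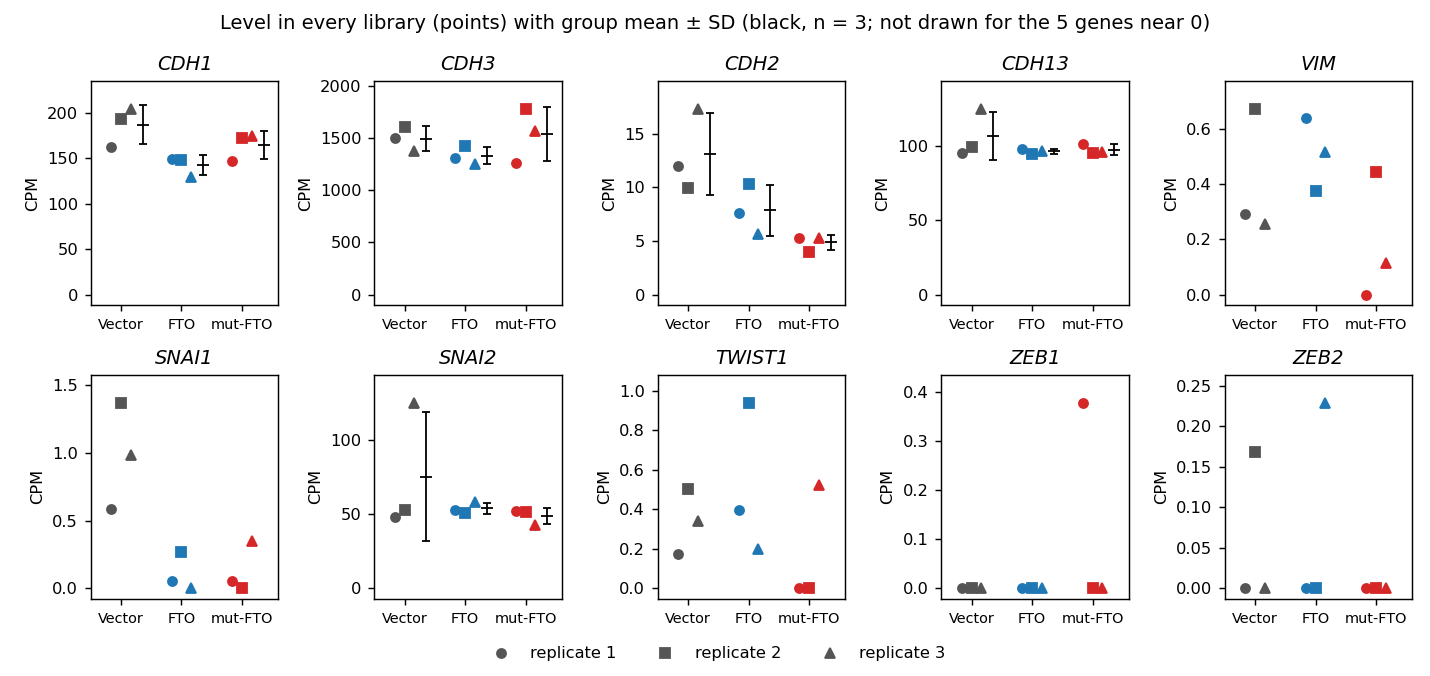
CPM of each of the 10 genes (panels) in every library, by group, with the symbol giving the replicate number and black bars the mean ± SD of 3 libraries, left out for the 5 genes near 0. CDH2 steps down from Vector to mut-FTO, SNAI2 and CDH13 are highest in Vector replicate 3, and SNAI1 is higher in the 3 Vector libraries than in the other 6.

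CDH2, the gene of N-cadherin, was the only one of the 8 tested genes to pass the threshold in any comparison, and it fell in mut-FTO. Its level was 12.0, 9.96 and 17.3 CPM in Vector, 7.60, 10.3 and 5.61 CPM in FTO, and 5.24, 4.01 and 5.32 CPM in mut-FTO. Every mut-FTO library was below every library of both other groups, while FTO and Vector overlapped. Against Vector, CDH2 was 2.69-fold lower in mut-FTO, a log2 fold change of −1.43 (SE 0.28; edgeR quasi-likelihood adjusted p = 0.00704, by Benjamini and Hochberg over all genes). In that comparison 4.51% of the 13713 tested genes were called lower and 7.78% were called in either direction, so 1 of 8 is not far from the background. Without Vector replicate 3, where CDH2 was highest, its log2 fold change was −1.18 (edgeR adjusted p = 0.00331). In FTO against Vector the log2 fold change of CDH2 was −0.74 (SE 0.27; edgeR adjusted p = 0.311). FTO against mut-FTO gave 0.69 (SE 0.28; edgeR adjusted p = 0.271), although the libraries of these groups did not overlap, as was the case for 29% of all tested genes. Neither of these differences passed the test. The comparisons against Vector share the Vector libraries. These are bulk samples, in which fewer cells with a transcript and less of it per cell cannot be told apart.

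CDH1, the gene of E-cadherin, did not change by the test in any comparison. Vector libraries held 162, 193 and 204 CPM, FTO libraries 149, 147 and 129 CPM, and mut-FTO libraries 147, 172 and 174 CPM. All FTO libraries lay below all Vector libraries, as was true of 21% of tested genes in either direction, and mut-FTO overlapped both. The log2 fold change of CDH1 in FTO was −0.39 (SE 0.15; edgeR adjusted p = 0.331), with an unadjusted p of 0.0233 and an unadjusted 95% interval of −0.72 to −0.063. In mut-FTO against Vector it was −0.18 (interval −0.51 to 0.15; edgeR adjusted p = 0.544).

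CDH3, the gene of P-cadherin, had 1503, 1609 and 1376 CPM in Vector, 1314, 1421 and 1257 CPM in FTO and 1266, 1781 and 1572 CPM in mut-FTO. The 3 groups overlapped, and mut-FTO libraries spread most widely. Its log2 fold change was −0.17 in FTO (interval −0.54 to 0.20; edgeR adjusted p = 0.722) and 0.041 in mut-FTO (interval −0.33 to 0.41; edgeR adjusted p = 0.921). The sign of the second value turned negative with library sizes unscaled (−0.042), without Vector replicate 3 (−0.026) or without mut-FTO replicate 2 (−0.074), and none of these values was called.

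CDH13 encodes T-cadherin, which is tied to the membrane by a lipid anchor and lacks the tail through which classical cadherins bind catenins. It measured 95.1, 99.05 and 124.9 CPM in Vector, 97.7, 94.7 and 96.9 CPM in FTO and 101.4, 94.9 and 96.2 CPM in mut-FTO. Apart from Vector replicate 3, the 8 libraries stayed within 94.7 to 101.4 CPM. Its log2 fold change was −0.14 in FTO (interval −0.47 to 0.18; edgeR adjusted p = 0.736) and −0.13 in mut-FTO (interval −0.45 to 0.20; edgeR adjusted p = 0.686). With Vector replicate 3 left out these became −0.033 and −0.0022.

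Ratios of counts within a library do not depend on how libraries are scaled. The ratio of CDH1 to CDH2 counts was 11.8 to 19.4 in Vector, 14.2 to 23.1 in FTO and 28.1 to 43.0 in mut-FTO, with means of 14.9 ± 3.98, 19.0 ± 4.46 and 34.6 ± 7.67 (SD, n = 3). All mut-FTO libraries were above all others, and FTO overlapped Vector. CDH3 counts were 8.11 ± 1.27 times those of CDH1 in Vector, 9.38 ± 0.507 times in FTO and 9.33 ± 0.896 times in mut-FTO. CDH13 counts were 0.570 ± 0.0513, 0.682 ± 0.0583 and 0.598 ± 0.0794 times those of CDH1 in the same order. FTO libraries (0.642 to 0.749) lay above Vector libraries (0.513 to 0.612) in the ratio of CDH13 to CDH1, while mut-FTO (0.550 to 0.690) overlapped both. These ratios are descriptions with no test.

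**Figure D3:**
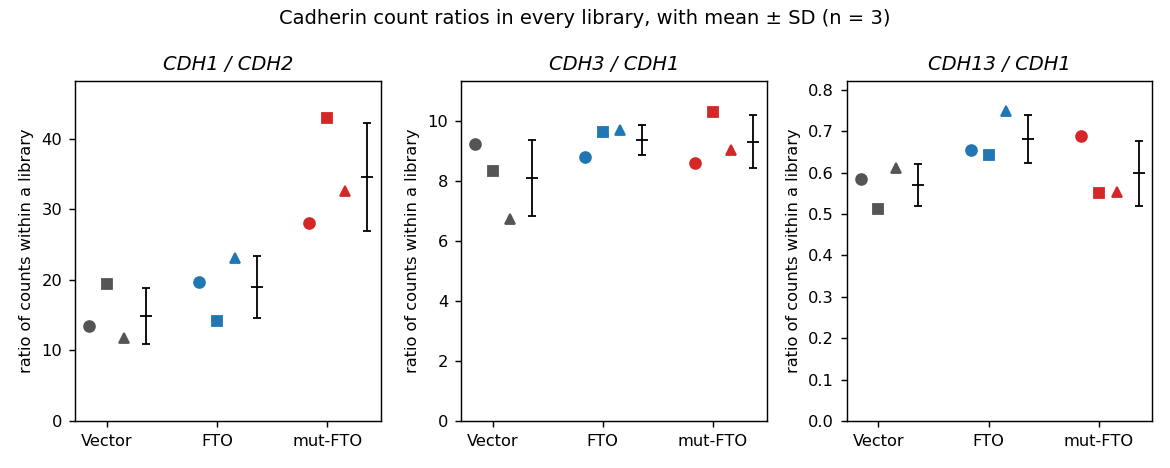
Ratio of counts of CDH1 to CDH2, CDH3 to CDH1 and CDH13 to CDH1 within each library, by group, with symbols for replicates 1 (circle), 2 (square) and 3 (triangle) and black bars for mean ± SD (n = 3). The CDH1 to CDH2 ratio is 28.1 or more in mut-FTO and 23.1 or less elsewhere, and the other ratios vary little by comparison.

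RNA of vimentin, the intermediate filament protein of mesenchymal cells, was close to absent. VIM had 10, 24 and 9 counts in Vector, 24, 14 and 18 counts in FTO and 0, 13 and 4 counts in mut-FTO, or at most 0.671 CPM. The groups overlapped. Its log2 fold change was 0.32 in FTO (interval −1.54 to 2.18; edgeR adjusted p = 0.915) and −1.17 in mut-FTO (interval −3.20 to 0.86; edgeR adjusted p = 0.522). The first interval spans several fold in either direction and the second reaches from a fall of several fold to a rise.

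SNAI1, which encodes the zinc finger repressor Snail, had 20, 49 and 35 counts in Vector, 2, 10 and 0 counts in FTO and 2, 0 and 12 counts in mut-FTO. All Vector libraries (0.584 to 1.37 CPM) were above all FTO libraries (0 to 0.268 CPM) and all mut-FTO libraries (0 to 0.347 CPM). Groups also did not overlap for 21% and 24% of all tested genes in these comparisons. SNAI1 had enough counts for testing through the Vector libraries, where it was high. A gene kept in this way tends to look lower in the other groups. Counts added up to 104 in Vector against 12 in FTO and 14 in mut-FTO. Even so, neither difference passed the threshold, with log2 fold changes of −3.14 (SE 1.07; edgeR adjusted p = 0.273) and −2.82 (SE 1.05; edgeR adjusted p = 0.135). Without FTO replicate 2, which held 10 of the 12 counts, the first was −4.99, and without mut-FTO replicate 3, which held 12 of the 14, the second was −4.90 (edgeR adjusted p = 0.317 and 0.0832). DESeq2 (adjusted p = 0.102 and 0.0674) and limma-voom (adjusted p = 0.201 and 0.0756) did not call SNAI1 either.

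SNAI2 encodes Slug, the SNAI factor that keratinocytes use, and was the only EMT factor of the 5 with a sizeable level. It reached 48.1, 52.4 and 124.9 CPM in Vector, 52.4, 50.7 and 58.1 CPM in FTO and 52.0, 51.1 and 42.7 CPM in mut-FTO. Vector replicate 3 stood alone, and the other 8 libraries lay between 42.7 and 58.1 CPM. Its log2 fold changes were −0.48 in FTO (SE 0.30; edgeR adjusted p = 0.548) and −0.63 in mut-FTO (SE 0.30; edgeR adjusted p = 0.251). Without Vector replicate 3 they became 0.074 and −0.056 (edgeR adjusted p = 0.807 and 0.844), so both values rest on that library. This was also the library with 14.97% mitochondrially encoded counts and with the highest CDH2, CDH13 and CDH1, and the part of its RNA makeup in these levels was not tested.

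TWIST1, a basic helix-loop-helix factor, had 6, 18 and 12 counts in Vector, 15, 35 and 7 counts in FTO and 0, 0 and 18 counts in mut-FTO. The groups overlapped, and the log2 fold changes of 0.59 in FTO and −0.94 in mut-FTO were not called (edgeR adjusted p = 0.867 and 0.700). All 18 counts of mut-FTO were in replicate 3. Without that library the second value was a larger fall, −6.6, from counts of 0 in mut-FTO, and it was still not called (edgeR adjusted p = 0.0803). ZEB1, a zinc finger and homeodomain repressor, was listed at 0 in all libraries except mut-FTO replicate 1, which had 14 counts. ZEB2, its paralog, had 6 counts in Vector replicate 2, 8 counts in FTO replicate 3 and 0 elsewhere. A count of 0 in all 3 libraries of a group allows up to 3 counts in total, or 0.0285 CPM in Vector, 0.0273 CPM in FTO and 0.0297 CPM in mut-FTO, by counting error alone. Zeros were frequent among low counts: where the other 2 libraries of a group averaged 8 to 15 counts of a gene, 13.2% of values in the remaining library were 0, and 37.9% where they averaged 3 to 8. Single zeros in ZEB1, ZEB2, TWIST1 and VIM are read with that share in mind, and no difference in these 4 genes was called or, for ZEB1 and ZEB2, tested. Small counts were also more often even than odd in these libraries, so single counts may not be independent and these floors may be too low.

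**Figure D4:**
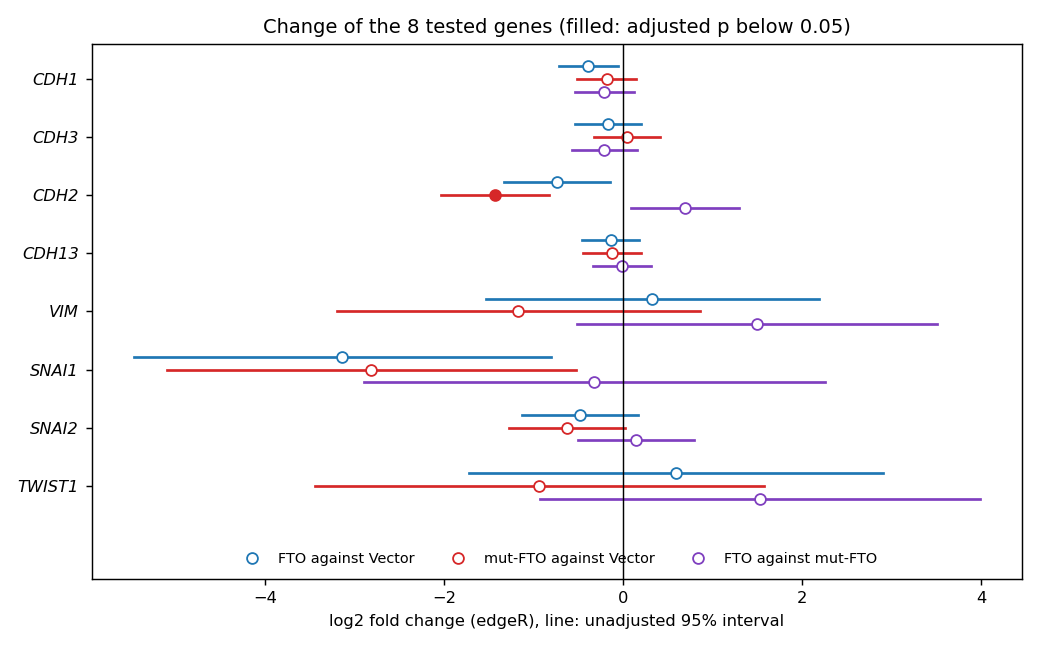
edgeR log2 fold changes of the 8 tested genes in 3 comparisons (colours), with unadjusted 95% intervals as lines and filled points for adjusted p below 0.05. Only CDH2 in mut-FTO against Vector (−1.43) is filled, and the intervals of VIM, SNAI1 and TWIST1 span several log2 units.

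Counted over the 8 tested genes, edgeR called 0 in FTO against Vector, 1 in mut-FTO against Vector (CDH2, lower) and 0 in FTO against mut-FTO. The background shares called were 0.744%, 7.78% and 2.33% of 13713 genes: 0.306% higher and 0.438% lower in the first comparison, 3.27% and 4.51% in the second, and 1.2% and 1.13% in the third. Groups did not overlap for 2, 2 and 1 of the 8, against 21%, 24% and 29% of all tested genes. SNAI1, tested through its Vector counts, was 1 of the 2 in each comparison against Vector. DESeq2 and limma-voom gave the same counts of 0, 1 and 0. At an unadjusted p below 0.05, edgeR found 3 (CDH1, CDH2 and SNAI1), 2 (CDH2 and SNAI1) and 1 (CDH2) of the 8, against 11.9%, 21.1% and 14% of all tested genes. The median log2 fold change of the 8 was −0.28, −0.78 and 0.065, against −0.0020, −0.0012 and 0.0046 over all tested genes. The −0.78 lies between SNAI2 (−0.63, but −0.056 without Vector replicate 3) and TWIST1 (−0.94, from 36 counts in Vector and 18 in mut-FTO). CDH1, CDH3 and CDH13 stood at −0.18, 0.041 and −0.13 there, so the median does not describe all 8.

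Other cadherins were examined in a list of 39 genes, of which 16 had enough counts. CDH4, encoding R-cadherin, the classical cadherin closest to N-cadherin, fell in mut-FTO, as did CDH23, a cadherin of hair cell tip links. CDHR1, a photoreceptor cadherin, rose. CDH4 had 15.6 ± 4.62 CPM in Vector, and the FTO and mut-FTO libraries averaged 5.67 ± 1.57 and 2.51 ± 0.371 CPM (SD, n = 3). In mut-FTO it was 6.21-fold lower than in Vector (log2 −2.64, SE 0.30; edgeR adjusted p = 0.000172). CDH23 was 3.93-fold lower (edgeR adjusted p = 0.0033), from 4.68 ± 0.868 to 1.19 ± 0.501 CPM. CDHR1 was 6.62-fold higher in mut-FTO (edgeR adjusted p = 0.00016), from 2.73 ± 1.13 to 18.1 ± 3.19 CPM. The remaining 13 tested genes did not pass, and the median log2 fold change of the 16 was 0.38. The called share was 18.8% of the genes tested in the list, against 7.78% of all tested genes. This list was chosen with earlier results of these data known, so its shares are no independent evidence. Between FTO and Vector, CDH4 (log2 −1.46; edgeR adjusted p = 0.0352) and CDHR1 (log2 1.48; edgeR adjusted p = 0.0434) passed and 14 genes did not. This was 12.5% of the genes tested in the list, against 0.744% of all tested genes. The calls of CDH4 and CDHR1 were both lost without any single library other than Vector replicate 3 (edgeR adjusted p = 0.0640 to 0.231). CDHR1 was also lower in FTO than in mut-FTO (log2 −1.25; edgeR adjusted p = 0.0420), the only gene of the list called there. It made up 6.25% of the genes tested in the list, against 2.33% of all tested genes called. That call of CDHR1 held without Vector replicate 1 or 3 and was lost without any of the other 7 libraries (0.0608 to 0.199). Between FTO and mut-FTO 7 genes were called without Vector replicate 3 (2 higher and 5 lower).

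Catenins link cadherin tails to actin, and nectins with afadin form a second adhesion system in the same junction. None of 15 tested genes of this kind, among 18 listed, was called by edgeR in FTO or in mut-FTO against Vector. There 4 and 3 had an unadjusted edgeR p below 0.05, against 11.9% and 21.1% of all tested genes. DESeq2 called 1 and 0, limma-voom 0 and 0, and edgeR 1 lower in each without Vector replicate 3. The median log2 fold changes were −0.23 and −0.14. TJP1, a scaffold protein of tight junctions, had the lowest p in mut-FTO against Vector (log2 −0.77; edgeR adjusted p = 0.147, 0.0250 without Vector replicate 1 and 0.342 without Vector replicate 3). NECTIN4 was the only gene called in FTO against mut-FTO, at 29.04 ± 0.857 CPM in FTO and 55.4 ± 5.05 in mut-FTO (log2 −0.93; edgeR adjusted p = 0.0488). That call was lost without any of the 6 libraries compared (0.0885 to 0.207). NECTIN4 alone is 6.67% of the genes tested in the list, against 2.33% of all tested genes called.

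Epithelial genes that ZEB and SNAI factors are known to keep low were tested as a list of 33, all with enough counts. In mut-FTO 3 rose and 30 did not pass, and the median log2 fold change was 0.16. The called share of 9.09% is near the 7.78% of all tested genes. GRHL3, a grainyhead factor of the epidermal barrier, rose 2.66-fold from 3.05 ± 0.570 to 8.10 ± 0.770 CPM (edgeR adjusted p = 0.00304). OVOL2, a zinc finger factor that maintains epithelial identity, rose 2.12-fold from 8.205 ± 1.84 to 17.4 ± 3.50 CPM (edgeR adjusted p = 0.0098). GRHL1 rose 1.57-fold (edgeR adjusted p = 0.0447), a call lost without any single library other than Vector replicate 3 (0.0809 to 0.145). OVOL2 lost its call without mut-FTO replicate 3 (0.0560), where only 1 gene of the list was called. Without Vector replicate 3, 4 genes rose and 5 fell, so the balance of this list depended on that library. For FTO against Vector edgeR, DESeq2 and limma-voom called 0 of the 33, and edgeR called 1 lower without Vector replicate 3. There 2 had an unadjusted edgeR p below 0.05 with all libraries, against 11.9% of all tested genes. OVOL2 had the lowest p, at log2 0.65 (edgeR adjusted p = 0.273).

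Of 32 mesenchymal genes tested in a list of 39, 10 fell, 3 rose and 19 did not pass in mut-FTO against Vector, and the median log2 fold change was −0.34. This was 40.6% of the genes tested in the list, against 7.78% of all genes. Earlier results of these data were known when the list was chosen, so this share is no independent evidence. FN1 is the gene the series is named for and so no independent sign of the list's direction, and it went from 243 ± 31.3 CPM in Vector to 7.73 ± 1.05 in mut-FTO. NT5E, the surface enzyme CD73, fell 6.86-fold from 27.5 ± 8.93 to 4.002 ± 0.984 CPM (edgeR adjusted p = 5.44e-05). Of the 3 that rose, COL5A2 and LOX encode a fibrillar collagen chain and a collagen crosslinking enzyme and DCN a small matrix proteoglycan, named here after their values were seen. LOX rose 3.35-fold to 34.1 ± 3.21 CPM. DCN, which is also a fibroblast marker, had 4 counts in Vector against 85 in FTO and 223 in mut-FTO. Of the 32, 4 fell and 3 rose in FTO against Vector, with a median of −0.33, and MMP9 and COL5A1 followed FN1 in order of p. The called share was 21.9% of the genes tested in this same chosen list, against 0.744% of all tested genes. MMP9, a gelatinase, fell 6.81-fold to 45 counts in total (edgeR adjusted p = 0.00569, and 0.0539 without FTO replicate 3). COL5A1, a fibrillar collagen chain, fell 2.91-fold from 30.5 ± 4.37 to 10.5 ± 0.866 CPM (edgeR adjusted p = 0.00746, and 0.0722 and 0.0730 without FTO replicates 1 and 3). This count of 7 moved by over 1.5 times without any library but Vector replicate 1, from 1 gene without FTO replicate 3 to 13 without Vector replicate 3. Of the 3 that rose, none was called by edgeR without Vector replicate 1, without any single FTO library or without mut-FTO replicate 1 or 3, while 1 to 5 genes that fell were called in each case. Set directly against mut-FTO, 5 genes were higher in FTO and 0 lower, FN1 and NT5E (3.18-fold; edgeR adjusted p = 0.00542) among them. This was 15.6% of the genes tested in the list, against 2.33% of all tested genes. The count of 5 became 11 without Vector replicate 3 (8 higher and 3 lower) and 3 without any FTO library or without mut-FTO replicate 2 or 3.

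Other transcription factors linked to EMT moved in mut-FTO, where 6 of 20 tested fell, 3 rose and 11 did not pass (median −0.46). This was 45% of the genes tested in the list, against 7.78% of all genes. The list was chosen with earlier results of these data known, so its share is no independent evidence. The 3 that rose were ID1, ID2 and ID3. ID2 and ID3, inhibitors of helix-loop-helix factors, rose 2.14-fold and 2.86-fold, to 56.9 ± 7.55 and 221 ± 28.7 CPM (edgeR adjusted p = 0.0014 and 0.0025). HMGA2, a chromatin architectural factor, fell 4.02-fold from 85.6 ± 53.2 CPM to 21.3 ± 2.93 CPM (edgeR adjusted p = 0.00242). Its Vector libraries ranged from 53.8 to 147.1 CPM, all above the mut-FTO libraries at 18.5 to 24.4 CPM. Without Vector replicate 3 the log2 fold change of HMGA2 was −1.37 in place of −2.01 and still called (edgeR adjusted p = 3.80e-06). The count of 9 became 5 without mut-FTO replicate 1 and was 6 to 11 without any other library. For FTO against Vector edgeR and limma-voom called 0 of the 20 and DESeq2 2. An unadjusted edgeR p below 0.05 was found for 6, against 11.9% of all tested genes. edgeR called 2 without Vector replicate 3 and 1 without mut-FTO replicate 1. ID2 came closest (46.2 ± 4.68 CPM in FTO and 26.7 ± 2.34 in Vector; edgeR adjusted p = 0.0527).

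**Figure D5:**
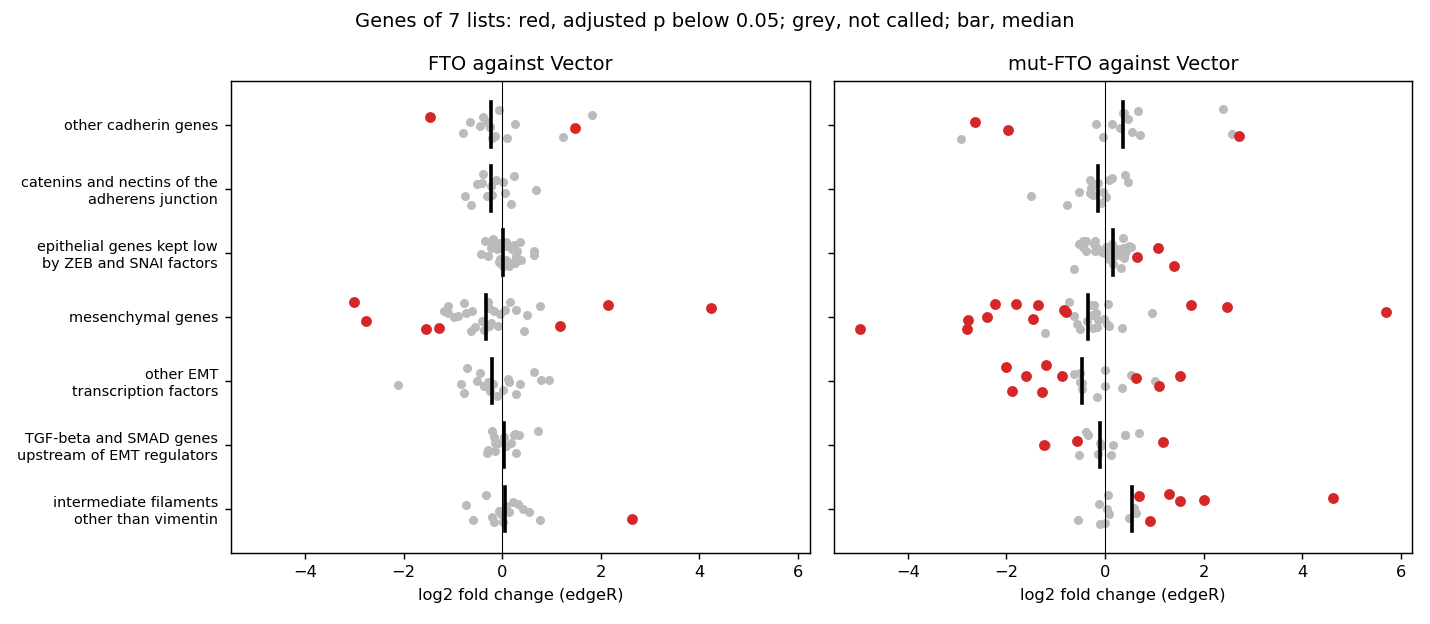
edgeR log2 fold changes of the tested genes of 7 lists in FTO (left) and mut-FTO (right) against Vector, red where adjusted p is below 0.05, with a black bar at each list's median. Red points are 3 and 10 on the rising and falling side of the mesenchymal list in mut-FTO, and 0 for the catenin and nectin list in both panels.

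The genes whose pattern over the 9 libraries was most like that of CDH2 were NBPF9 (Pearson r = 0.971 of log2 CPM), FANCI (0.969) and KIAA1614 (0.967), out of 11492 genes compared. NBPF9 averaged 13.5 ± 2.87 CPM in Vector libraries, 9.19 ± 0.763 CPM in FTO libraries and 6.01 ± 0.735 CPM in mut-FTO libraries. FANCI, a DNA repair gene, stepped from 21.8 ± 1.35 to 17.4 ± 2.02 and 13.6 ± 0.508 CPM. NBPF9 belongs to a family of near-identical copies, so its counts are uncertain. These correlations share the libraries and their depth and are given as descriptions. Being the highest of many, values of this size are not particular to CDH2. The best matches of VIM, TWIST1 and SNAI2, which were not called, reached 0.915, 0.932 and 0.988.

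Cells of other types could carry vimentin, N-cadherin or ZEB transcripts. Of 12 fibroblast markers 8 had a count in each group and 4 were at 0, with a summed level of 12.3 to 14.0 CPM in Vector, 9.19 to 12.2 CPM in FTO and 12.2 to 13.4 CPM in mut-FTO. COL1A2 had 0 counts in Vector against 14 in FTO and 6 in mut-FTO, and PDGFRB 2, 0 and 0. With the groups in this order, COL1A1 had 837, 438 and 665 counts. FAP stepped down as CDH2 did, with 303, 261 and 128 counts. DCN (4, 85 and 223 counts) and TWIST2 (69, 140 and 138) were lowest in Vector. PDGFRA (106, 133 and 107 counts), LUM (47, 67 and 37) and COL3A1 (4, 29 and 6) were highest in FTO. Of 10 melanocyte markers 4 or 5 had a count, the sum was at most 2.76 CPM in any library, and TYR and DCT were at 0. PMEL (71, 128 and 139 counts in Vector, FTO and mut-FTO) and MITF (41, 78 and 50) had the most counts. Endothelial markers, of which 3 to 5 of 8 had a count, summed to 1.10 to 1.985 CPM in Vector, 0.687 to 1.18 CPM in FTO and 0 to 0.611 CPM in mut-FTO, so that mut-FTO lay below Vector, as it did for CDH2. PECAM1, CLDN5 and EMCN were at 0 in all groups. Of these CDH5, the endothelial cadherin, had 117 counts in Vector against 78 in FTO and 14 in mut-FTO. Leukocyte markers summed to 67.4 to 110.1 CPM, and the pan-leukocyte gene PTPRC had 0, 0 and 2 counts. CD68 and CD14 made up most of the sum, at 61.9 and 13.7 CPM in Vector and 58.6 and 27.6 CPM in mut-FTO. LCK (152, 88 and 59 counts in Vector, FTO and mut-FTO) and CD3E (60, 17 and 32) were lower in mut-FTO than in Vector. ITGAM (6, 30 and 47 counts) was higher there. CDH2 had 1381 counts in Vector and 496 in mut-FTO, while the fibroblast sums of these groups overlapped and the melanocyte sum was higher in mut-FTO (1.53 to 2.76 CPM) than in Vector (0.935 to 1.495 CPM). The overlapping fibroblast sums join markers with fewer counts in mut-FTO, such as FAP, and markers with more, such as DCN. The part of other cells in the level of CDH2 was not tested.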

How the data were processed

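Poly(A) RNA of HaCaT cells was measured in 9 libraries, 3 per group by the labels' titles. The table deposited by the authors holds raw gene counts in whole numbers; HISAT2, StringTie and the build mm10 are named per the submitters' processing notes, although the symbols are human. The counting tool, strand setting, versions and annotation were not given in the sources used here, so no coordinates are printed. All columns of values were used (0 left out). Any pair of libraries of a group differed by more than sampling noise.

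The test was that of edgeR 4.0.16 (R 4.3.3): filterByExpr (minimum count 10, minimum total 15) kept 13713 of 21170 features, with TMM scaling, 1 model of all 9 libraries with a term per group, robust quasi-likelihood tests and Benjamini-Hochberg adjustment over all genes at 0.05. Standard errors come from the fold change and its F statistic, and 95% intervals from them. log2 CPM used a prior count of 2. It was tried on simulated data. Named genes are the 10 members and, per list and comparison, up to 3 called genes of lowest p, or 1 where none was called; likeness to a called member took the 3 highest correlations. Some genes that this rule names are not reported here. Members and lists were chosen with earlier results of these data known. Alternatives were RLE and unscaled sizes, DESeq2 1.42.0, limma-voom (limma 3.58.1), other filters, the 6 libraries compared, a replicate block, and libraries left out; leaving out mitochondrially encoded genes was added after the data were seen. The 95% intervals include the spread between libraries, and floors cover counting error only.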

Additional observations from a re-analysis of the deposited data

How the results depend on the processing

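The number of the 8 genes called (0 for FTO and 1 for mut-FTO, each against Vector, and 0 between FTO and mut-FTO) was the same under all 19 alternatives. CDH2 in mut-FTO against Vector was called in each, with log2 fold changes of −1.08 to −1.60 and adjusted p of 2.73e-05 to 0.0482. Counts over all genes, 102, 1067 and 319 in that order, moved more: 364, 1680 and 751 by DESeq2, 41, 621 and 1218 with the 6 libraries compared, 1050, 2401 and 1196 without Vector replicate 3 and mut-FTO replicate 2 together, and 27 to 476, 609 to 2089 and 71 to 1427 with 1 library left out. Replicate numbers are only shared numbers: same-numbered libraries correlated at −0.128 to 0.106 in their deviations from the group means, and 0 of 9 libraries correlated best with their own number. The replicate block gave 67 genes in FTO against Vector, and CDH2 at −1.42 in mut-FTO (adjusted p = 0.0175). Among the 8 genes, sign changes occurred only in differences that were not called. SNAI2 in FTO against Vector was 0.084 without both doubted libraries and −0.72 to 0.074 with 1 library left out, and TWIST1 −0.17 to 0.99. CDH3 in mut-FTO against Vector was −0.042 with unscaled sizes, −0.16 without both doubted libraries and −0.074 to 0.16 with 1 left out. CDH13 in FTO against mut-FTO was 0.021 with unscaled sizes, 0.00013 without mitochondrially encoded genes and −0.041 to 0.015 with 1 left out, and SNAI1 −2.17 to 1.76. The cause of these shifts was not tested. VIM, SNAI1, TWIST1, ZEB1 and ZEB2 rest on at most 49 counts per library.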

Other observations

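Intermediate filament genes other than vimentin were higher in mut-FTO where they were called. A list of 19 without vimentin also held PLEC, which encodes a linker of filaments. Of its 16 tested genes, 6 rose, 0 fell and 10 did not pass against Vector, with a median log2 fold change of 0.54. The called share was 37.5% of the genes tested in the list, against 7.78% of all tested genes, in a list chosen with earlier results of these data known. KRT1, the suprabasal keratin, measured 3.63 ± 0.870 CPM in Vector libraries, 22.4 ± 2.34 CPM in FTO libraries and 90.3 ± 4.01 CPM in mut-FTO libraries (SD, n = 3). NEFL, a neurofilament gene, rose 2.89-fold to 33.2 ± 1.86 CPM and KRT16, a keratin of stressed epidermis, 4.01-fold to 187 ± 9.86 CPM (edgeR adjusted p = 0.000486 and 0.000895). Without Vector replicate 3, 8 of these genes rose and 2 fell. Between FTO and Vector KRT1 alone was called, with 1 further gene lower without Vector replicate 3. KRT1 alone is 6.25% of the genes tested in the list, against 0.744% of all tested genes called.

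TGF-beta and SMAD signalling acts upstream of SNAI and ZEB factors. Of 15 tested genes listed for it, 1 rose and 2 fell in mut-FTO against Vector and 12 did not pass (median −0.11). This was 20% of the genes tested, against 7.78% of all tested genes, and 2 genes were called without any single library other than Vector replicate 3. This list too was chosen with earlier results of these data known. SMAD6, an inhibitory SMAD, rose 2.27-fold to 49.4 ± 7.53 CPM (edgeR adjusted p = 0.0024). INHBA, an activin subunit, fell 2.37-fold to 56.4 ± 9.02 CPM (edgeR adjusted p = 0.00461). TGFBI, a TGF-beta-induced gene and not an upstream one, fell 1.49-fold (edgeR adjusted p = 0.0404). That call was lost without any single library other than Vector replicate 3 (0.0630 to 0.135). Between FTO and Vector edgeR and limma-voom called 0 of the 15 and DESeq2 1. An unadjusted edgeR p below 0.05 was found for 2, against 11.9% of all tested genes.

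Small counts in the table were more often even than odd. Among genes with 1 to 10 counts, 59.7% to 63% had an even count in the 9 libraries, and genes at 2 counts (231 to 347 per library) outnumbered those at 1 count (72 to 95) and at 3 counts (137 to 211).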
